A study of Mus musculus with 4 samples.

Results

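Expression of 10 genes linked to T cell quiescence was examined in stimulated WT and R111A CD4+ T cells. They were Btg1, Tob1 and Tob2 of the BTG/TOB family, the Kruppel-like factors Klf4 and Klf6, and the Schlafen genes Slfn1, Slfn2, Slfn3, Slfn5 and Slfn8. The genes were taken by symbol from a table of 16142 genes, which held all 10. Of these, 9 had the mean of at least 1 FPKM required for testing, as did 9831 genes in all, and Klf4 did not. The design held 2 libraries of WT cells and 2 of R111A cells, and the question was how the level of each gene differed when a form of Regnase-1 that resists degradation was present. WT cells came from wild type B6 mice. R111A cells came from Cd4CreERT2 LSL-R111A fl/fl mice that had received tamoxifen at 75 mg/kg for 5 days. In these mice the CAG promoter at the Rosa26 locus drives a Regnase-1 mutant and EGFP once Cre, expressed from the Cd4 promoter and activated by tamoxifen, has removed a STOP cassette. The mutant carries alanine at the arginine where the protease MALT1 cleaves Regnase-1, and the endogenous gene is kept. WT mice had tamoxifen in other assays of the study, and whether those of these libraries did is not stated. For mice with a GFP reporter the methods describe a gate on GFP and a further split by CD25, and they do not say which fraction these libraries hold. The methods give both sexes and an age of 6 to 12 weeks for mice where nothing else is stated, and the age behind these libraries is not given. All 4 libraries were of splenic CD4+ T cells sorted by FACS and kept for 12 h with antibodies to CD3 (5 µg/mL) and CD28 (1 µg/mL) as the stimulus, so they show activated cells and not resting ones. Nothing in the labels says that the libraries came from separate animals, so the p-values measure the spread between these samples only.

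Quiescence is the small, slowly metabolizing state that a naive T cell keeps until its receptor is engaged, and it is held by transcription factors and RNA regulators that are lost or overridden on activation. BTG/TOB proteins have no known enzyme activity of their own and bring the CCR4-NOT deadenylase to mRNAs, which shortens their poly(A) tails, while several Kruppel-like factors restrain T cell proliferation and direct T cell migration. Schlafen genes were first described as regulators of thymocyte growth, many are inducible by type I interferon, and mice with mutant Slfn2 have T cells that do not keep quiescence.

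Each value was an FPKM, an estimated number of reads scaled by the length of the gene and by the size of the library. The FPKM values summed to 801475 in WT replicate 1, 836143 in WT replicate 2, 1053551 in R111A replicate 1 and 1012215 in R111A replicate 2. How many reads stood behind each value is unknown, since counts were not used here. Over the genes tested, the scaled median absolute deviation of the replicate difference in log2(FPKM + 1) was 0.135 in WT and 0.318 in R111A. This measure of spread gives little weight to genes with large gaps, and by it the R111A libraries varied more. Fold changes were fitted with limma on log2(FPKM + 1), a scale that understates the change of low genes, and every adjusted p below is from that fit over all genes tested. A gene passed when its adjusted p was under 0.05, and it was called when it also changed by at least 2-fold on that scale. The smallest two-sided p that exact permutation allows with 2 libraries per group is 0.333.

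Zc3h12a, which encodes Regnase-1 (NCBI gene 230738, chr4:125118414-125127881 of GRCm38.p6, minus strand), was at 16.97 and 15.72 FPKM in the WT libraries, compared with 196.30 and 130.87 FPKM for R111A. The R111A values both lay far above both WT libraries, as their labels state, with a log2 fold change of 3.22 (standard error, SE, 0.19, adjusted p = 9.2e-06). Transcripts of the endogenous gene and of the transgene are counted together in it. T cell identity was checked with 10 markers, all of them present in each library. Their summed level was 2760 and 2789 FPKM in WT and 2576 and 2368 FPKM in R111A, and Cd3g was the most abundant in WT and Lat in R111A. Cd4 itself was at 157.54 and 131.28 FPKM in WT cells, against 70.69 and 51.35 FPKM in R111A cells. Cd8a lay between 0.02 and 0.20 FPKM in the 4 libraries. The libraries therefore carried the transcripts of the labelled cell type, with 7 of the 10 markers lower in both R111A libraries and 2 higher. Cd4 passed as lower (log2 fold change -1.24, adjusted p = 0.00057), though not when low genes were kept (adjusted p = 0.051).

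Among the 9 genes tested, Tob1 and Klf6 were called higher in R111A CD4+ T cells (2 genes, against 8.52% of all genes tested) and none was called lower by limma (0 genes, against 8.34%, and likewise 0 at 2-fold with an unadjusted p under 0.05). By the adjusted p alone, Btg1, Tob1, Klf6 and Slfn1 were higher (4 genes, against 21.2% of all genes), and Slfn2 was lower (1 gene, against 32.1%). By the unadjusted p from limma, 2 genes were lower, Slfn2 and Tob2, a rule that at least 32.1% of all genes tested also met. Both R111A libraries lay above both WT libraries for 5 of the 9, where 32.0% of all genes tested did so, and below them for 3 of the 9, where 46.3% did so. The median log2 fold change of the 9 genes was 0.34, against -0.12 for all genes tested. The genes thus did not move in 1 direction. When the FPKM were rescaled to TPM, so that each library had the same sum, the median of all genes shifted to -0.42 and that of the 9 genes to 0.05. Of all genes, 580 were then called higher and 1756 lower, against 838 and 820 without rescaling. Slfn2 was then called lower (1 gene), and Slfn1 no longer passed. Tob2, Slfn3 and Slfn5 then passed as lower along with Slfn2 (4 genes, against 51.8% of all genes tested). Without R111A replicate 2 the log2 fold change of Slfn2 was -1.15. Relative to the median of all genes, the log2 fold change was 1.09 for Btg1, 1.82 for Tob1, 1.66 for Klf6 and -0.83 for Slfn2, and after rescaling 1.06, 1.84, 1.65 and -0.87 in the same order. Relative to it, Slfn1 was at 0.65 and 0.63, Tob2 at -0.27 and -0.29, Slfn3 at -0.10 in both, Slfn5 at -0.16 and -0.05, and Slfn8 at 0.46 and 0.47.

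**Figure D1:**
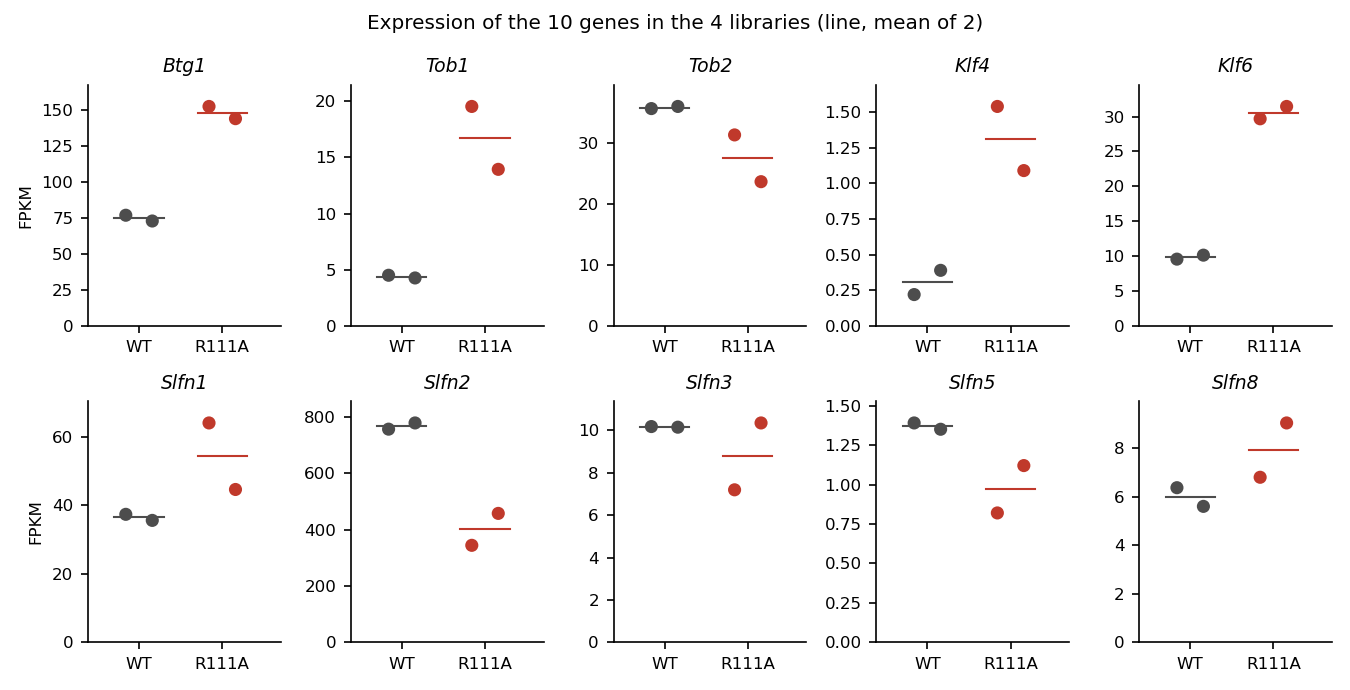
FPKM (y axis, each panel with its own scale from 0) of the 10 genes in WT (grey) and R111A (red) libraries, where each point is 1 library, replicate 1 on the left of each pair, and each line is the mean of 2. Tob1, Klf4, Klf6 and Btg1 lay higher in both R111A libraries, Slfn2 lay lower at 344.04 and 457.17 FPKM against 755.65 and 777.66 FPKM, and the groups overlapped for Slfn3.

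Btg1 (NCBI gene 12226, chr10:96617001-96622813, plus strand) was the most abundant of the 3 BTG/TOB genes, and with Btg2 it is needed to keep naive T cells quiescent. It was at 77.02 and 73.01 FPKM in the WT libraries, compared with 152.73 and 144.23 FPKM for R111A. The R111A libraries both lay above the WT libraries, with the replicates close together. The mean FPKM was 1.98-fold higher, a log2 fold change of 0.98 (SE 0.12, 95% interval 0.69 to 1.26, adjusted p = 0.00031). Btg1 passed in each of the 14 alternatives tried (adjusted p of at most 0.013), with its lowest log2 fold change, 0.64, after rescaling to TPM. It crossed the 2-fold threshold with median-of-ratios factors (1.11), after quantile normalization, without WT replicate 1 (1.01) and without R111A replicate 2 (1.02). In bulk RNA, more cells that express a gene and more RNA per cell cannot be told apart, and this holds for each gene here.

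Tob1 (NCBI gene 22057, chr11:94209842-94215495, plus strand), known as a negative regulator of T cell proliferation that is high in resting T cells, was at 4.51 and 4.27 FPKM in WT cells, against 19.54 and 13.94 FPKM in R111A cells. It was the gene with the largest fold change of the 9, and both R111A libraries lay well above both WT libraries. Its log2 fold change was 1.70 (SE 0.18, 95% interval 1.30 to 2.10, adjusted p = 0.00011), a 3.81-fold difference in mean FPKM. It was called in each of the 14 alternatives (adjusted p of at most 0.029, log2 fold change of up to 1.93). Tob2 (NCBI gene 57259, chr15:81848270-81858326, minus strand), a close relative of Tob1, did not follow it. It was at 35.65 and 36.00 FPKM in the WT libraries, compared with 31.33 and 23.66 FPKM for R111A. Its R111A values both lay below the WT values, but R111A replicate 1 lay closer to the WT values than to its own replicate. The log2 fold change of -0.38 (SE 0.16, 95% interval -0.75 to -0.02) did not pass (adjusted p = 0.071). Tob2 did pass when TPM were used (log2 fold change -0.71, adjusted p = 0.0017), but not with median-of-ratios factors (-0.25, adjusted p = 0.23). Its log2 fold change was -0.58 without R111A replicate 1 and -0.19 without R111A replicate 2. Per length, Tob2 lay above Tob1 in each library, with a mean of 35.8 FPKM against 4.39 FPKM in WT.

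The promoters of Btg1 and Tob1 are shown because, of the 3 BTG/TOB genes among the 10, these were the ones that rose. The sequences are the 250 bases before the RefSeq start site (GRCm38.p6), printed 5′ to 3′ on the strand of the gene. They lie at chr10:96616751-96617000 (plus) for Btg1 and chr11:94211204-94211453 (plus) for Tob1. The Tob1 window lies inside the gene span given above, which begins farther upstream than the start site used. Capitals mark matches, on either strand, to a forkhead motif (GTAAACA), the GC box (GGGCGG) that SP and Kruppel-like factors bind, and the core of the interferon-stimulated response element (GAAANNGAAA), motifs that were chosen after the expression values were seen.
Btg1: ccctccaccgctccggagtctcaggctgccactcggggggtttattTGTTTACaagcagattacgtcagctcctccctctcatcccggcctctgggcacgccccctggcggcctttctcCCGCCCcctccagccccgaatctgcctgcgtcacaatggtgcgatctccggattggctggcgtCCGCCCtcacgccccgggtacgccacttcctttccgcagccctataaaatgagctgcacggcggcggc
Tob1: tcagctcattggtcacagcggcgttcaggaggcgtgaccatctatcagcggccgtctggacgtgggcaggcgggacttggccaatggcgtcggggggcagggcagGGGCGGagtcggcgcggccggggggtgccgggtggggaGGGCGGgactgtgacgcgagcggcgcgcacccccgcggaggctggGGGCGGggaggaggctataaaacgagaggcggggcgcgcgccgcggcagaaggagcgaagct
Btg1 held the forkhead motif once, at -204 from the start site, the only one among the 10 genes, while 3.09% of 27025 promoters held it. A GC box was present in 6 of the 10 genes, namely all of the BTG/TOB and Kruppel-like genes and Slfn5, against 32.9% of the 27025 promoters and 53.3% of those of genes in the table. None of the matches in the promoters printed here overlapped. The promoters hold 65.2% (Btg1) and 73.6% (Tob1) G and C. A match is a description of the letters and not of a bound site.

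Klf6 (NCBI gene 23849, chr13:5861489-5870393, plus strand), a zinc finger transcription factor that restrains growth in several cell types, was at 9.57 and 10.14 FPKM in WT cells, against 29.68 and 31.45 FPKM in R111A cells. Both groups were tight, and the R111A libraries lay at about the same level as each other. The log2 fold change was 1.54 (SE 0.13, 95% interval 1.23 to 1.85, adjusted p = 4.5e-05), a 3.10-fold difference in mean FPKM. Klf6 was called in each of the 14 alternatives (log2 fold change from 1.23 to 1.67). Its promoter (chr13:5861239-5861488 of GRCm38.p6, plus strand, before the RefSeq start site, 64.8% G and C) is shown because Klf6 was the other gene called, with its 1 GC box, at -63, in capitals.
Klf6: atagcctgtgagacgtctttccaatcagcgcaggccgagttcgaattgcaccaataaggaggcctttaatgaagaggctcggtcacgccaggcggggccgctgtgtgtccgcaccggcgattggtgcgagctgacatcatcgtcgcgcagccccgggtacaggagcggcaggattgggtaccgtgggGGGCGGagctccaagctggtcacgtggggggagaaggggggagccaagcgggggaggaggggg

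Klf4 (NCBI gene 16600, chr4:55527137-55532475, minus strand), known to limit T cell proliferation and best known as a pluripotency factor, was near the floor of the table. It was at 0.22 and 0.39 FPKM in the WT libraries, compared with 1.54 and 1.09 FPKM for R111A. Both R111A libraries lay above both WT libraries, and the mean FPKM was 4.31-fold higher, but the mean of the 4 libraries stayed below 1 FPKM and the gene was not tested. With no filter its log2 fold change was 0.82 (SE 0.14, 95% interval 0.35 to 1.30) and it passed narrowly (adjusted p = 0.0497). Of 12 alternatives to that fit it passed in 1, rescaling to TPM (adjusted p = 0.046), and the adjusted p ranged up to 0.23. Without WT replicate 1 it reached the filter, through its R111A values alone, and passed there (0.73, adjusted p = 0.00792), while the same libraries with no filter gave the 0.23.

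The other genes of these families were read from lists. Of the other BTG/TOB genes, Btg2 and Btg3 were tested. Btg2, induced by p53 and an anti-proliferative partner of Btg1, was at 23.37 and 24.33 FPKM in WT cells, against 110.74 and 97.01 FPKM in R111A cells. It exceeded all WT values by a wide margin and was called (log2 fold change 2.07, SE 0.13, adjusted p = 1.2e-05). Btg3 was at 44.97 and 47.10 FPKM in the WT libraries, compared with 36.05 and 38.93 FPKM for R111A, so its 2 groups did not overlap either. It did not pass (log2 fold change -0.29, adjusted p = 0.088), although it did after rescaling to TPM (-0.62, adjusted p = 0.0023) and without R111A replicate 2 (-0.34, adjusted p = 0.017), against an adjusted p of up to 0.50 in the alternatives. Of 14 other Kruppel-like factors in the table, 8 were tested, 5 passed as higher, none as lower by limma (0 genes, and likewise 0 at an unadjusted p under 0.05), and 3 did not pass, where 21.2% of all genes tested passed as higher and 32.1% as lower. Klf11, with a WT mean below 1 FPKM, was tested only because of its R111A level, and of the other 7 factors 4 passed as higher, and their median was 0.84 in log2 fold change. With TPM the tally over the 8 was 5 higher and 2 lower, where 13.5% and 51.8% of all genes passed. With low genes kept it was 1 higher and 0 lower, against 11.8% and 13.4% of all genes. Over the 8 the median was 0.76 (0.54 after rescaling to TPM), and none of the 8 changed sign under TPM, median-of-ratios factors or quantile normalization. Klf2, which drives the receptors for T cell exit from lymphoid tissue and supports quiescence, was at 24.70 and 20.88 FPKM in WT cells, against 100.18 and 41.54 FPKM in R111A cells. The R111A replicates of Klf2 lay far apart but above both WT values, and the gene was called (log2 fold change 1.47, SE 0.33, adjusted p = 0.0061), with a log2 fold change of 0.84 without R111A replicate 1, 2.09 without R111A replicate 2 and no pass when low genes were kept (adjusted p = 0.16). Klf7 was called too (1.02, adjusted p = 0.0023), but it was below 2-fold after rescaling to TPM (0.78), with quantile normalization (0.96), with a pseudocount of 5 FPKM (0.51), without WT replicate 2 (0.75) and without R111A replicate 1 (0.96), and its adjusted p was 0.081 when low genes were kept. Klf3 (0.94), Klf10 (0.84) and Klf11 (0.68) passed below 2-fold in log2 fold change. Klf3 was called without R111A replicate 2 (1.17), with median-of-ratios factors (1.06) and with a pseudocount of 0.1 FPKM (1.03), as was Klf11 with the latter (1.28), and neither passed when low genes were kept (adjusted p = 0.072 and 0.057), nor Klf11 with quantile normalization (0.059). Klf13 and Klf16 overlapped between the groups, and Klf9 was lower in both R111A libraries without passing (adjusted p = 0.15), which it did after rescaling to TPM (-0.50, adjusted p = 0.014, with up to 0.57 in the alternatives). Klf13 was at 0.42 (adjusted p = 0.14), passed as higher without R111A replicate 2 (0.79, adjusted p = 0.0016) and was at 0.06 without R111A replicate 1, with an adjusted p of up to 0.66 in the alternatives. Klf16 was at -0.19 with all libraries, passed as lower at -0.54 (adjusted p = 0.0043) without R111A replicate 1 and at -0.52 (adjusted p = 0.033) after rescaling to TPM, had an adjusted p of up to 0.82 in the alternatives, and was at 0.15 without R111A replicate 2.

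**Figure D2:**
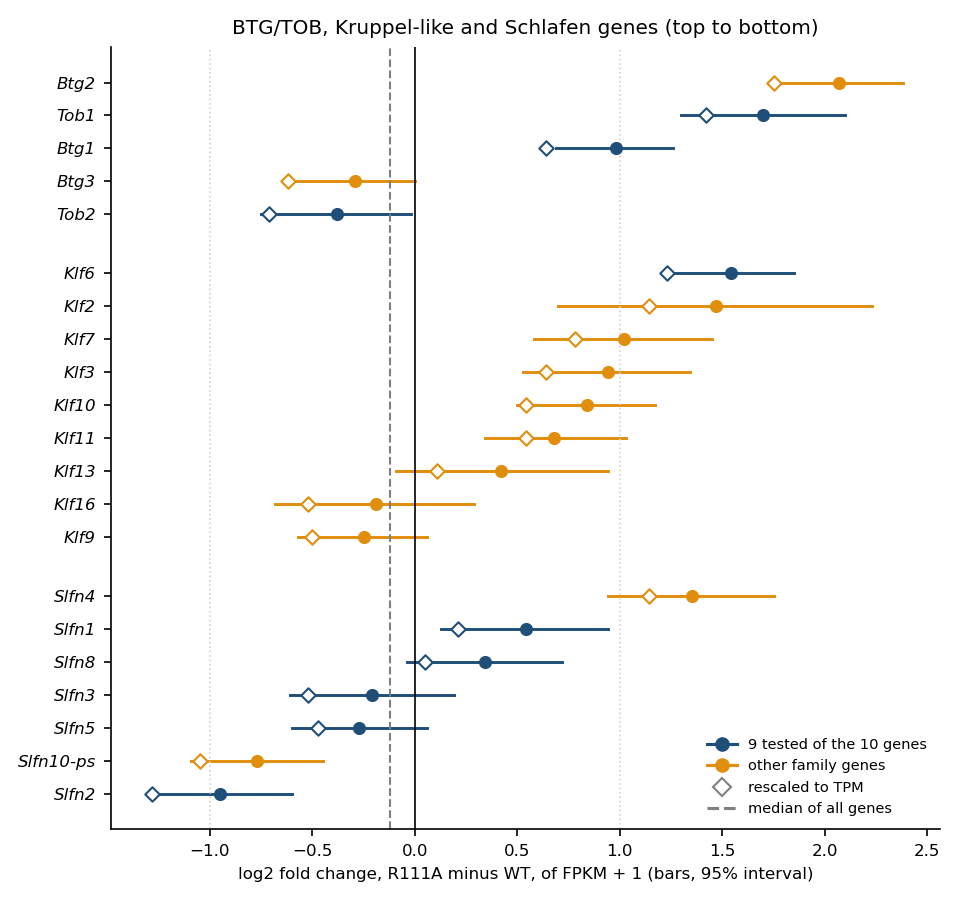
Log2 fold change, R111A minus WT, of FPKM + 1 (x axis) with its 95% interval from limma for each tested BTG/TOB, Kruppel-like and Schlafen gene, in that order from the top, with the value after rescaling to TPM as an open diamond. Dotted lines mark 2-fold and the dashed line marks the median of all genes at -0.12. Tob1 (1.70) and Klf6 (1.54) lie beyond 2-fold, and the Schlafen genes reach from Slfn4 at 1.35 to Slfn2 at -0.95.

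The 5 Schlafen genes lie together on chromosome 11 within 264 kb (chr11:82951349-83215154), in the order Slfn5, Slfn8, Slfn2, Slfn1 and Slfn3, and the ones that passed differed in direction. Slfn2 and Slfn1 encode the short form of the protein, Slfn3 an intermediate form, and Slfn5 and Slfn8 the long form with a helicase-like region. Slfn2 (NCBI gene 20556, chr11:83065112-83070678, plus strand) was at 755.65 and 777.66 FPKM in the WT libraries, compared with 344.04 and 457.17 FPKM for R111A. It was the most abundant of the 10 genes in each library, and both R111A values were far below both WT values. The log2 fold change was -0.95 (SE 0.15, 95% interval -1.30 to -0.60, adjusted p = 0.0012), and the mean WT level was 1.91 times the R111A level. Slfn2 was thus lower but short of the 2-fold threshold, which it crossed after rescaling to TPM (log2 fold change -1.28, adjusted p = 1.6e-05) and without R111A replicate 2 (-1.15, adjusted p = 0.00025). It passed in 13 of 14 alternatives and missed when low genes were kept (adjusted p = 0.055).

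Slfn1 (NCBI gene 20555, chr11:83116820-83122670, plus strand), which blocks thymocyte growth when overexpressed, was at 37.37 and 35.60 FPKM in WT cells, against 64.03 and 44.62 FPKM in R111A cells. Both R111A libraries lay above both WT libraries, but they differed from each other by more than R111A replicate 2 differed from WT. The log2 fold change was 0.54 (SE 0.18, 95% interval 0.13 to 0.94, adjusted p = 0.031). Slfn1 passed narrowly, and it no longer passed when low genes were kept (adjusted p = 0.19), after rescaling to TPM (log2 fold change 0.21, adjusted p = 0.29), without WT replicate 1 (0.57, adjusted p = 0.093) and without WT replicate 2 (0.51, adjusted p = 0.14). Its log2 fold change was 0.28 without R111A replicate 1 and 0.8 without R111A replicate 2. Slfn1 and Slfn2, which follow each other on the plus strand, therefore differed in direction, with both R111A libraries higher for Slfn1 and lower for Slfn2. The signs held under TPM, median-of-ratios factors and quantile normalization.

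Slfn3 (NCBI gene 20557, chr11:83191330-83215154, plus strand) was at 10.17 and 10.14 FPKM in the WT libraries, compared with 7.19 and 10.34 FPKM for R111A, so the groups overlapped. Its log2 fold change of -0.21 (adjusted p = 0.34) depended on single libraries, with 0.02 (adjusted p = 0.84) without R111A replicate 1 and -0.45 (adjusted p = 0.0088) without R111A replicate 2, and it was -0.52 (adjusted p = 0.028) after rescaling to TPM. Slfn5 (NCBI gene 327978, chr11:82951349-82964850, plus strand) was low, at 1.39 and 1.35 FPKM in WT cells, against 0.82 and 1.12 FPKM in R111A cells. Both R111A values lay below both WT values, but the log2 fold change of -0.27 (SE 0.14) did not pass (adjusted p = 0.14). It passed after rescaling to TPM (-0.47, adjusted p = 0.023) and with quantile normalization (-0.51, adjusted p = 0.022). With median-of-ratios factors it did not (-0.2, adjusted p = 0.27). The log2 fold change of Slfn5 was -0.38 without R111A replicate 2 and -0.16 without R111A replicate 1. Slfn8 (NCBI gene 276950, chr11:83002125-83020810, minus strand) was at 6.38 and 5.61 FPKM in the WT libraries, compared with 6.81 and 9.05 FPKM for R111A. The R111A values were the higher ones and the groups did not overlap, but R111A replicate 1 lay nearer to the WT values than to its own replicate. The log2 fold change was 0.34 (SE 0.17, adjusted p = 0.11). Slfn8 passed with median-of-ratios factors (0.46, adjusted p = 0.043), and it was at 0.05 after rescaling to TPM (adjusted p = 0.82). Its log2 fold change was 0.52 without R111A replicate 1 and 0.16 without R111A replicate 2.

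Among the other Schlafen genes, Slfn4 and the pseudogene Slfn10-ps were tested, and Slfn9, Slfn14 and Slfnl1 had a mean below 1 FPKM. Slfn4, which is known from myeloid cells, was at 1.36 and 1.39 FPKM in WT cells, against 4.14 and 6.12 FPKM in R111A cells. Both R111A libraries lay above both WT libraries, and it was called higher (log2 fold change 1.35, SE 0.18, adjusted p = 0.00038), but not at 2-fold with a pseudocount of 5 FPKM (0.66). Slfn10-ps, between Slfn8 and Slfn2 on the chromosome, was at 5.14 and 5.05 FPKM in the WT libraries, compared with 2.38 and 2.77 FPKM for R111A. It passed as lower (log2 fold change -0.77, SE 0.14, adjusted p = 0.0021) and was called after rescaling to TPM (-1.05), so the cluster held genes that were higher and genes that were lower, under each scaling. Schlafen transcripts share sequence, and reads from shared stretches may have been divided between genes. Of the 50-base words in its GENCODE transcripts, Slfn8 shared 14.6% with other Schlafen genes, most of them with Slfn10-ps (10.1%). Slfn3 shared 7.39%, Slfn2 shared 4.27% and Slfn1 shared 0.606%, in each case most with Slfn4. Slfn10-ps shared 19.7%, most of them with Slfn9 (13.5%), Slfn4 shared 8.15%, and Slfn5 shared 0%. The part of shared reads in these values was not tested.

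The summed FPKM of the 5 Schlafen genes was 810.96 and 830.36 in WT and 422.89 and 522.30 in R111A. Slfn2 made up most of it, at 93.2% and 93.7% in WT and 81.4% and 87.5% in R111A. Slfn1 followed with 4.61% and 4.29% in WT and 15.1% and 8.54% in R111A. The groups did not overlap in either share, but the R111A replicates differed from each other by more than R111A replicate 2 differed from WT. Slfn1 reached 4.95% and 4.58% of the Slfn2 level in WT and 18.6% and 9.76% in R111A. Slfn3 (1.22% to 1.98%), Slfn8 (0.676% to 1.73%) and Slfn5 (0.163% to 0.214%) made up the rest.

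**Figure D3:**
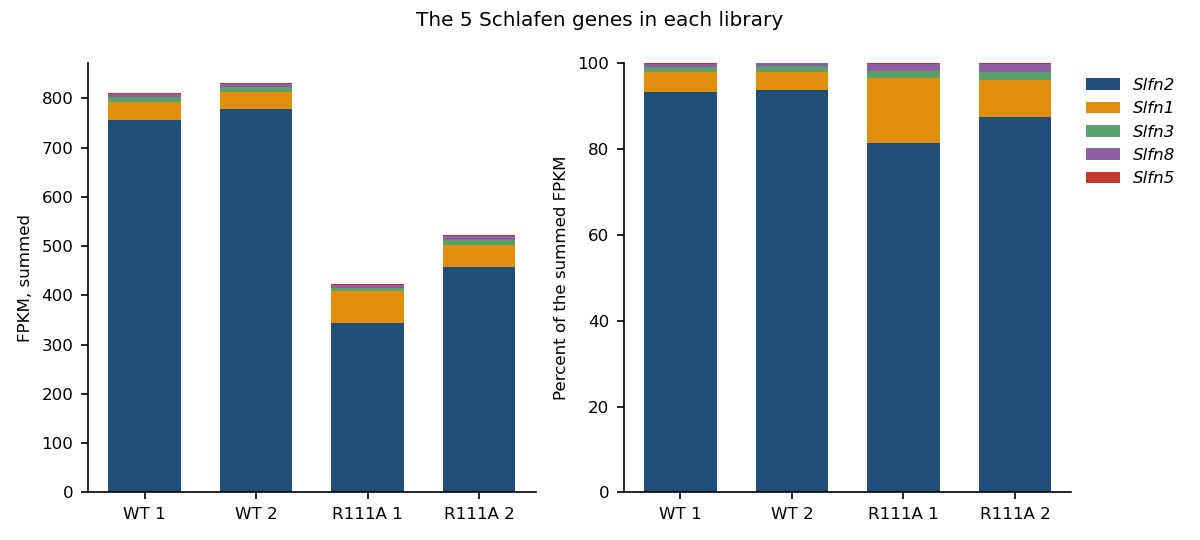
Summed FPKM of the 5 Schlafen genes in each library (left) and each gene's share of that sum in percent (right), stacked by gene. The sum fell from 810.96 and 830.36 in the WT libraries to 422.89 and 522.30 in the R111A libraries, and the Slfn2 share (dark blue) from 93.2% and 93.7% to 81.4% and 87.5%.

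The promoters of Slfn2, Slfn5 and Slfn8 are shown because Slfn2 was the member that fell and the others held the interferon element. They lie at chr11:83064862-83065111 (plus) for Slfn2, chr11:82951852-82952101 (plus) for Slfn5 and chr11:83020811-83021060 (minus) for Slfn8 in GRCm38.p6, before RefSeq start sites, the first of those given for Slfn8, and capitals mark the same motifs as above. The Slfn5 window lies inside its gene span, which begins farther upstream than the start site used.
Slfn2: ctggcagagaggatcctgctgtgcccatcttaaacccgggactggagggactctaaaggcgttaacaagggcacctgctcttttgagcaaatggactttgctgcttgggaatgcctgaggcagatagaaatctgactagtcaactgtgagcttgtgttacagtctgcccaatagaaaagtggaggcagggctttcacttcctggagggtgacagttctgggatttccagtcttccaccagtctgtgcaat
Slfn5: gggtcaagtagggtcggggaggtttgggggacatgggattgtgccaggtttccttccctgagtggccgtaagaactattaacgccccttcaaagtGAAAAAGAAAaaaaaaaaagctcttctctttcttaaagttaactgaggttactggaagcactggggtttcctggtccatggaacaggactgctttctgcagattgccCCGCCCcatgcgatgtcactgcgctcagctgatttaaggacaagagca
Slfn8: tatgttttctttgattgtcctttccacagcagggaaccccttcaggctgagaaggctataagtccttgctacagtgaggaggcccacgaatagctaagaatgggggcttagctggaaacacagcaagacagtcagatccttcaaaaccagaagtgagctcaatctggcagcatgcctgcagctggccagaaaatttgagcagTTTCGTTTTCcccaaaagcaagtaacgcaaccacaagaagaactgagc
The interferon element was found at -155 in Slfn5, within a run of A, and at -48 in Slfn8, where the printed strand shows its complement. It was absent from the windows of Slfn1, Slfn2 and Slfn3, and 3.04% of the 27025 promoters held it. All 5 Schlafen promoters were poorer in G and C (48.0% to 52.0%) than the 5 BTG/TOB and Kruppel-like promoters (60.4% to 74.0%).

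The order of levels was read from FPKM, which is per length. In WT cells it was Slfn2, Btg1, Slfn1, Tob2, Slfn3, Klf6, Slfn8, Tob1, Slfn5 and Klf4, where Slfn1 and Tob2, and Slfn3 and Klf6, did not differ beyond their ranges. In R111A cells it was Slfn2, Btg1, Slfn1, Klf6, Tob2, Tob1, Slfn3, Slfn8, Klf4 and Slfn5, where the ranges of Klf6 and Tob2, of Slfn3 and Slfn8, and of Klf4 and Slfn5 overlapped. Tob1 thus stood below Slfn3 and Slfn8 in both WT libraries and above them in both R111A libraries, and Klf6 reached the level of Tob2. The tested genes outside the 10 whose profile over the 4 libraries was most like that of Tob1 were Tecpr1, Zswim4 and Trib3, with Euclidean distances of 0.0645, 0.0685 and 0.0686 between centred log2(FPKM + 1) values. Tecpr1 was at 8.61 and 7.90 FPKM in WT cells, against 33.58 and 25.53 FPKM in R111A cells.

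The deadenylation machinery was read in the same way, as a list that holds CCR4-NOT, which BTG/TOB proteins bring to mRNAs, and genes outside it. Of its 17 genes, all tested, 2 passed as higher (21.2% of all genes did so), 3 as lower (32.1% of all genes) and 12 did not pass, with a median log2 fold change of -0.09, close to the -0.12 of all genes. After rescaling to TPM the tally was 1 higher and 9 lower, where 13.5% and 51.8% of all genes passed, and the median was -0.42, as for all genes. Cnot9, a subunit of CCR4-NOT, was at 33.09 and 32.09 FPKM in the WT libraries, compared with 12.33 and 11.15 FPKM for R111A, and was called lower (log2 fold change -1.40, SE 0.13, adjusted p = 7.3e-05). Pabpc4, a poly(A)-binding protein, was called lower as well (log2 fold change -1.30, SE 0.14, adjusted p = 0.00011). Parn, a deadenylase outside CCR4-NOT, passed as lower (-0.72, adjusted p = 0.0021), and was called after rescaling to TPM (-1.04), while Pan2 (0.89, adjusted p = 0.0010) and Pan3 (0.61, adjusted p = 0.0077), which form another deadenylase, passed as higher, with Pan2 called with median-of-ratios factors (1.01). Pan3 no longer passed after rescaling to TPM (adjusted p = 0.13), when low genes were kept (0.055), or without WT replicate 1 (0.056) or WT replicate 2 (0.13). Cnot7, a deadenylase subunit that binds BTG/TOB proteins, was at 37.51 and 39.37 FPKM in WT cells, against 35.10 and 44.38 FPKM in R111A cells. Its groups overlapped, and it was named for its role after its values were seen.

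Of 22 other quiescence factors tested, 11 passed as higher (21.2% of all genes did so), 3 as lower (32.1% of all genes) and 8 did not pass, with a median log2 fold change of 0.49 (0.17 after rescaling to TPM). The tally became 10 higher and 7 lower with TPM, and 5 higher and 1 lower when low genes were kept, where 11.8% and 13.4% of all genes passed. Cdkn1b, the CDK inhibitor p27, stood highest in fold change, at 6.72 and 8.81 FPKM in the WT libraries, compared with 50.91 and 38.36 FPKM for R111A (log2 fold change 2.38, SE 0.18, adjusted p = 2.7e-05). Btg2 and Klf2, described above, belong to this list too. The transcription factor Runx1 (log2 fold change 1.16, adjusted p = 0.00050), the mRNA decay factor Zfp36 (1.12, adjusted p = 0.0037) and the ubiquitin ligase Peli1 (0.98, adjusted p = 0.00037) were higher, and Zfp36 did not pass when low genes were kept (adjusted p = 0.12). Without R111A replicate 1, Runx1 (0.99) and Zfp36 (0.73) were below 2-fold, as they were after rescaling to TPM (0.86 and 0.80), and Runx1 also with a pseudocount of 5 FPKM (0.90). Peli1 was past 2-fold without R111A replicate 1 (1.02), without WT replicate 2 (1.01), after quantile normalization (1.14) and with median-of-ratios factors (1.11). The list was not uniform, with Rc3h1, Bach2 and Tsc2 passing as lower, genes that were named after their values were seen.

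Interferon-stimulated genes were read because many Schlafen genes respond to interferon. From this list, 1 gene was left out after its values were seen. Of the 16 tested, 15 passed as higher (21.2% of all genes did so) and 1 as lower (Bst2, named after its values were seen, against 32.1% of all genes), with a median log2 fold change of 1.51 (1.38 after rescaling to TPM). For 7 of the 16, Ifit3 and Oasl2 among them, the WT mean was below 1 FPKM, so that they were tested only because of their R111A level, which bears on this count and median and on the single genes. Among the other 9, 8 passed as higher and 1 as lower, with a median of 1.02. Over the 16, the higher ones numbered 13 with TPM and 12 with low genes kept, against 13.5% and 11.8% of all genes. Ifit3 was at 0.52 and 0.70 FPKM in WT cells, against 13.71 and 12.79 FPKM in R111A cells (log2 fold change 3.15, SE 0.14, adjusted p = 3.4e-06). Oasl2 (3.01), Rtp4 (2.66), Stat2 (1.15) and Isg15 (1.02), with their log2 fold changes in brackets, were called higher, as was Irf7, 5.30-fold higher in mean FPKM, with adjusted p between 3.2e-05 and 0.0011, though Stat2 did not pass when low genes were kept (adjusted p = 0.061). Stat2 and Isg15 were below 2-fold after rescaling to TPM (0.86 and 0.72), with a pseudocount of 5 FPKM (0.80 and 0.76) and without R111A replicate 1 (0.91 and 0.89), and Isg15 also without WT replicate 1 (0.88). Of the Schlafen genes tested, Slfn1 and Slfn4 passed as higher, and Slfn2 and Slfn10-ps passed as lower.

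**Figure D4:**
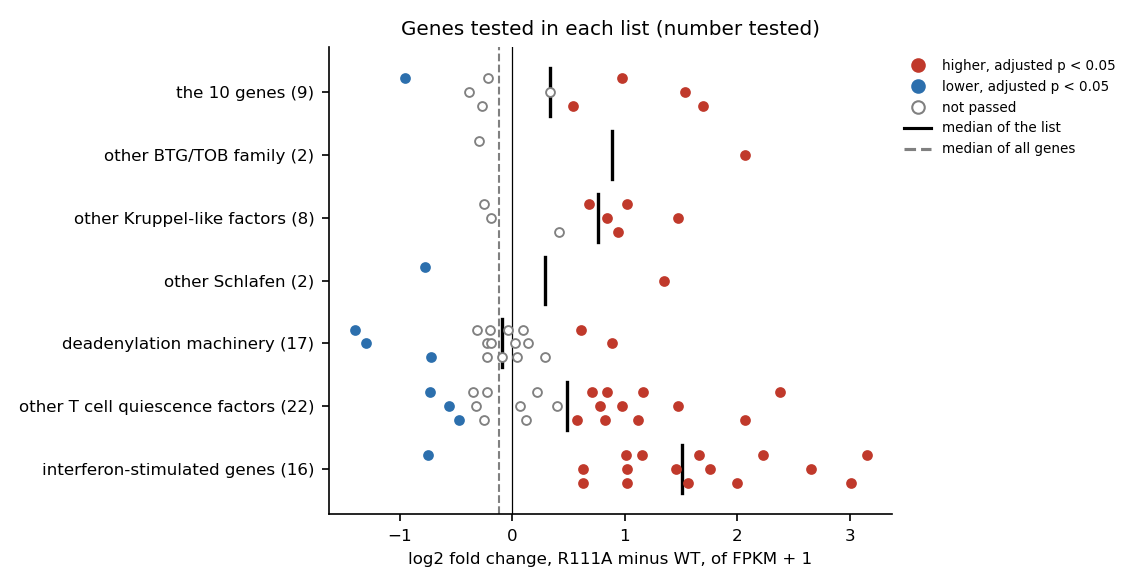
Log2 fold change, R111A minus WT, of FPKM + 1 (x axis) for each tested gene of the 7 lists (y axis, number tested in brackets), red where higher and blue where lower at the adjusted p threshold, open where not passed. Black bars mark the list medians, from -0.09 for the deadenylation machinery to 1.51 for interferon-stimulated genes (1.02 for the 9 of them with a WT mean of at least 1 FPKM), and the dashed line the median of all genes at -0.12.

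Markers of activation and of other cells also differed between the groups. The summed level of 8 activation markers was 1718 and 1637 FPKM in WT and 2320 and 2164 FPKM in R111A. Of the 8, 3 were above and 5 below in both R111A libraries. Irf4 was the most abundant in WT and Nr4a1 in R111A replicate 1 (982.95 FPKM). In R111A replicate 2 it was Cd69 (651.1 FPKM, against 616.23 FPKM for Nr4a1). Regulatory T cell markers summed to 387.4 and 404.3 FPKM in WT cells, against 198.9 and 209.2 FPKM in R111A cells, with 4 of 5 below, Tnfrsf18 the most abundant in WT and Il2ra, which encodes CD25, in R111A. Whether the sort removed cells with CD25 is not given for these libraries. Foxp3 among them was at 11.31 and 8.78 FPKM in the WT libraries, compared with 2.86 and 1.86 FPKM for R111A. Myeloid markers, a list that includes Slfn4, summed to 4.84 and 3.69 FPKM in WT cells, against 24.45 and 22.14 FPKM in R111A cells, with 10 of 12 above, Cd68 the most abundant in R111A and S100a9 at 0 in all 4 libraries. NK cell markers summed to 2.03 and 1.22 FPKM in WT cells, against 20.0 and 19.27 FPKM in R111A cells, with 5 of 5 above and Klrd1 the most abundant in R111A. The summed levels of these myeloid and NK cell markers were thus low in all libraries and higher in R111A. Erythroid markers summed to 0.66 and 0.70 FPKM in WT cells, against 12.93 and 12.97 FPKM in R111A cells, with 3 of 6 above, Hba-a1 the most abundant, and Hbb-bs and Hba-a2 at 0. B cell markers summed to 2.13 and 0.99 FPKM in WT cells, against 5.14 and 4.50 FPKM in R111A cells, with 2 of 6 above, 1 below and Cd79a the most abundant in R111A. Stromal or endothelial markers summed to 9.91 and 9.03 FPKM in WT cells, against 25.37 and 18.47 FPKM in R111A cells, with 2 of 6 above, 2 below and Pecam1 the most abundant. CD8 T cell markers summed to 7.31 and 6.76 FPKM in WT cells, against 3.88 and 4.46 FPKM in R111A cells, with 2 of 2 below and Cd8b1 the most abundant. The part of any such cells in the values of the 10 genes was not tested.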

How the data were processed

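The authors deposited FPKM values for 4 mRNA-seq libraries (polyA selection), made with Bowtie2 2.4.4 on the mm10 genome and RSEM 1.2.28, and these values were used as deposited. The authors tested counts with DESeq2, which was not repeated here because counts were not used. The table held 0 other columns per sample. A gene was tested when it averaged 1 FPKM or more over the 4 libraries (9831 of 16142), on log2(FPKM + 1), with limma 3.58.1 (lmFit and eBayes with a trend, R 4.3.3) and the Benjamini-Hochberg adjustment over all genes tested. A gene was called at 2-fold and an adjusted p under 0.05, the thresholds of the study's methods, and passed at the adjusted p alone. The code was tested on simulated data first. As alternatives, the pseudocount was set to 0.1 or 5 FPKM, the filter was dropped or raised to 5 FPKM, and the values were rescaled to TPM. Others were median-of-ratios factors, quantile normalization, a term for the replicate number, eBayes without trend or with robust estimation, no fold threshold, and each library left out in turn. Every one of the 10 genes was named, with Zc3h12a, all tested genes of the BTG/TOB, Kruppel-like and Schlafen families, and of each other list up to 6 genes with the largest change among those that passed and averaged 5 FPKM or more. The 3 tested genes nearest in profile to the called gene with the largest rise were named too. The 10 genes and the lists were chosen with earlier results of these data known, and the sequence motifs and the single markers named were chosen after the values were seen. After the values were seen, 1 gene was left out of the list of interferon-stimulated genes, so its counts and medians are not those of the list as first written. Positions and promoters are from RefSeq on GRCm38.p6, and shared 50-base words are from GENCODE transcripts. Python 3.11.15 with numpy 2.4.6, pandas 2.3.3 and matplotlib 3.10.9 made the tables and plots.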

Additional observations from a re-analysis of the deposited data

How the results depend on the processing

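Among all genes, the 838 called higher became 386 with a pseudocount of 5 FPKM, 521 with a filter at 5 FPKM and 2088 with no fold threshold. The 820 called lower became 402 with that pseudocount, 1756 after rescaling to TPM and 3152 with no fold threshold. A larger pseudocount shrinks fold changes and a stricter filter leaves fewer genes. Rescaling to TPM divides each library by its FPKM sum, which was larger in both R111A libraries, so R111A values fall relative to WT. With it the median log2 fold change of all genes went from -0.12 to -0.42. Why the sums differed was not tested. With each library left out in turn, 785 to 884 genes were called higher and 812 to 887 lower, where the lone library was assumed to vary like the other group.

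Of the 10 genes, 9 of them tested with the filter and all libraries, the 2 called higher became 4 with no fold threshold and ranged from 2 to 3 with a library left out. The 0 called lower became 1 after rescaling to TPM and 1 with no fold threshold, and ranged from 0 to 1 with a library left out. At the adjusted p alone, the 1 lower gene became 0 with no filter, 4 after rescaling to TPM and 2 with quantile normalization. In the same order, 13.4%, 51.8% and 26.7% of all genes passed as lower. The count of lower genes also changed when R111A replicate 1 or R111A replicate 2 was left out. The higher ones of the 10 ranged from 3 to 5, counting Klf4 with no filter and without WT replicate 1. In the latter fit Klf4 was tested only because of its R111A level. Apart from the shift that rescaling to TPM brings, the cause was not tested.

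For the counts over the related lists, the scalings and the fit with no filter were added after the data had been seen. With TPM, genes passing as lower went from 0 to 2 among other Kruppel-like factors, from 3 to 9 in the deadenylation machinery and from 3 to 7 among other quiescence factors, and those higher in the deadenylation machinery from 2 to 1. With no filter, genes passing as higher went from 5 to 1, from 2 to 1 and from 11 to 5 in the same lists. Those lower among quiescence factors went from 3 to 1. Of all genes, 13.5% passed as higher and 51.8% as lower with TPM, and 11.8% and 13.4% with no filter.

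With the replicate number as a block, 2 of the 9 genes were lower, since Tob2 then passed (adjusted p = 0.036), Klf13 passed as higher (0.025), and Klf4 with no filter no longer passed (0.13). The libraries share only these numbers, over 2 pairs, and the deviations of same-numbered libraries correlated at 0.111 across genes, which are not independent replicates.

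Slfn3 ranged from -0.45 to 0.02 with a library left out, turning without R111A replicate 1, and Klf16 from -0.54 to 0.15, turning without R111A replicate 2, in both cases short of the threshold where they turned. Over all single genes and alternatives, 476 values kept their direction and side of the threshold, 17 gained the threshold, 27 lost it and 2 reversed. The depth behind each value is not known, so what it limits could not be measured.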

Other observations

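With 2 libraries per group, the spread of each gene was estimated largely from the other genes. The labels do not name animals, sequencing runs or dates, so a batch that follows the groups cannot be told apart from them. The FPKM sums were higher in both R111A libraries, and the absolute RNA content of the cells was not measured. The libraries hold 1 time point of stimulation, and the unstimulated cells named in the methods were not analysed here. Protein levels, mRNA stability and cell proliferation were not measured in these libraries. Genes below the filter, Klf4 among them, were described and not called.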
